A study of Mus musculus with 12 samples.

Results

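The genes described here are the 10 listed genes of antigen presentation by MHC class II, namely H2-Aa, H2-Ab1, H2-Eb1, Cd74, Ciita, H2-DMa, H2-DMb1, H2-DMb2, H2-Oa and H2-Ob. They were chosen by name, and all 10 were found among the 23284 genes of the expression table. RNA was measured in cells sorted as group 3 innate lymphoid cells (ILC3s) from the small intestine of HR-1 mice, a hairless strain, at 18 weeks of age. The mice had been breastfed with milk rich in palmitic acid (PA) or with normal milk (ND), and cells came from the intraepithelial layer (IEL) or the lamina propria (LP). This gives 4 groups of 3 libraries, PA IEL, ND IEL, PA LP and ND LP, which share strain, age and sorted cell type. The comparisons ask how the genes differ between the milk diets within a layer, between the layers within a diet, and whether the diet difference itself differs between the layers. The labels do not say whether replicates are separate mice, so p-values measure the spread between these libraries, which may be technical.

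MHC class II molecules are pairs of an alpha and a beta chain that carry peptides of ingested proteins to the cell surface, where CD4 T cells read them. Cd74, the invariant chain, guides the pair to endosomes and blocks its groove, H2-DM exchanges the remaining fragment for peptides, H2-O restrains H2-DM, and Ciita switches the whole pathway on. In the gut, ILC3s are known to carry MHC class II, as are B cells, dendritic cells, macrophages and stimulated epithelium.

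Levels are given as FPKM, fragments counted per length of gene and scaled to the mapped fragments of a library, which can be compared between genes. Genes at 1 FPKM or more numbered 4390 in PA IEL replicate 2 and 5637 in PA LP replicate 2, and between 7863 and 11378 in the other 10 libraries. Of 1288 genes that reached 50 FPKM in at least 10 libraries, 34 were listed at 0 in PA IEL replicate 2 and 21 in PA LP replicate 2. A listed 0 may therefore be a failed estimate, and levels are given per library without a mean. Summed scaled counts ranged from 9376529 to 11710874 per library.

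The sort label was set against its markers. The study's methods describe cells without lineage markers that carried Thy1, CD25 (Il2ra), Nrp1 and CD4, for which CD45 is named at another place in the study. Il7r, the interleukin-7 receptor, was under 0.1 FPKM in PA IEL replicate 2, PA LP replicate 2 and ND LP replicate 1, and reached 167 FPKM in PA IEL replicate 1. Thy1 did not exceed 14.2 FPKM and was listed at 0 in 5 libraries. Il2ra ranged from 0 to 82.4 FPKM and was under 1 FPKM in 4 libraries, and Nrp1 ranged from 0 to 58.2 FPKM. Id2, a factor shared by innate lymphoid cells, was measured in every library, from 95.2 to 750 FPKM. The libraries are called here by their labels, and those markers do not bear out the label in each of them.

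Cd74 was the most abundant member in every library. It stood at 5027, 5203 and 4248 FPKM in PA IEL and at 2011, 5562 and 3879 FPKM in ND IEL. In PA LP it was at 419, 874 and 5307 FPKM and in ND LP at 8014, 1170 and 2747 FPKM. The PA IEL libraries lay close together, whereas PA LP held 2 low libraries and 1 high library, and no pair of groups was separate. By group median the order was PA IEL, ND IEL, ND LP and PA LP, and neighbours in that order overlapped. The log2 fold change on the log2(FPKM + 1) scale was 1.94 ± 0.73 (SE) for IEL over LP in PA, with an adjusted p of 0.406 in limma. For PA over ND it was 0.45 ± 0.73 in IEL (adjusted p = 0.986) and -1.24 ± 0.73 in LP (adjusted p = 0.979, limma). In bulk RNA, fewer cells of a type and less RNA per cell cannot be told apart.

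H2-Ab1 encodes the beta chain and H2-Aa the alpha chain of the I-A molecule. H2-Ab1 was at 1071, 1199 and 1268 FPKM in PA IEL, at 538, 1830 and 1072 FPKM in ND IEL, at 124, 381 and 1886 FPKM in PA LP, and at 2502, 268 and 755 FPKM in ND LP. PA IEL again had the narrowest spread, and its range lay inside that of each of the other groups. H2-Aa was at 711, 411 and 665 FPKM in PA IEL, at 250, 699 and 648 FPKM in ND IEL, at 93.1, 54.0 and 918 FPKM in PA LP, and at 955, 197 and 439 FPKM in ND LP. PA LP replicates 1 and 2 were the lowest libraries for H2-Aa and PA LP replicate 3 and ND LP replicate 1 the highest, and the groups overlapped. For IEL over LP in PA, the log2 fold change was 1.79 ± 0.83 for H2-Aa and 1.39 ± 0.82 for H2-Ab1, with adjusted p = 0.467 and 0.568 in limma. In the same contrast under ND they were 0.15 ± 0.83 and 0.35 ± 0.82.

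H2-Eb1, the beta chain of the I-E molecule, was at 402, 449 and 165 FPKM in PA IEL, at 93.9, 21.5 and 180 FPKM in ND IEL, at 39.6, 0.437 and 644 FPKM in PA LP, and at 45.6, 66.3 and 123 FPKM in ND LP. ND LP replicate 1, which had the most Cd74 and H2-Ab1, was low for H2-Eb1, and PA LP replicate 2 was nearly without it. The ratio of H2-Eb1 to H2-Ab1 ranged from 0.00115 in PA LP replicate 2 to 0.376 in PA IEL replicate 1, while that of H2-Aa to H2-Ab1 ranged from 0.142 to 0.749. The log2 fold change of H2-Eb1 for PA over ND was 2.1 ± 1.51 in IEL and -1.12 ± 1.51 in LP (adjusted p = 0.947 and 0.979, limma). In LP the value without PA IEL replicate 2 and PA LP replicate 2 was 1.15, the opposite direction. H2-Ea-ps, annotated as a polymorphic pseudogene of the partner alpha chain, was at 789 FPKM in ND LP replicate 1. It was listed at 0 in PA IEL replicate 1 and did not exceed 0.159 FPKM in any PA LP library, whereas PA LP replicate 3 had the most H2-Eb1. The H2 haplotype of HR-1 mice is not given in the sources used here, and reads from polymorphic class II alleles may map unevenly to the reference.

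**Figure D1:**
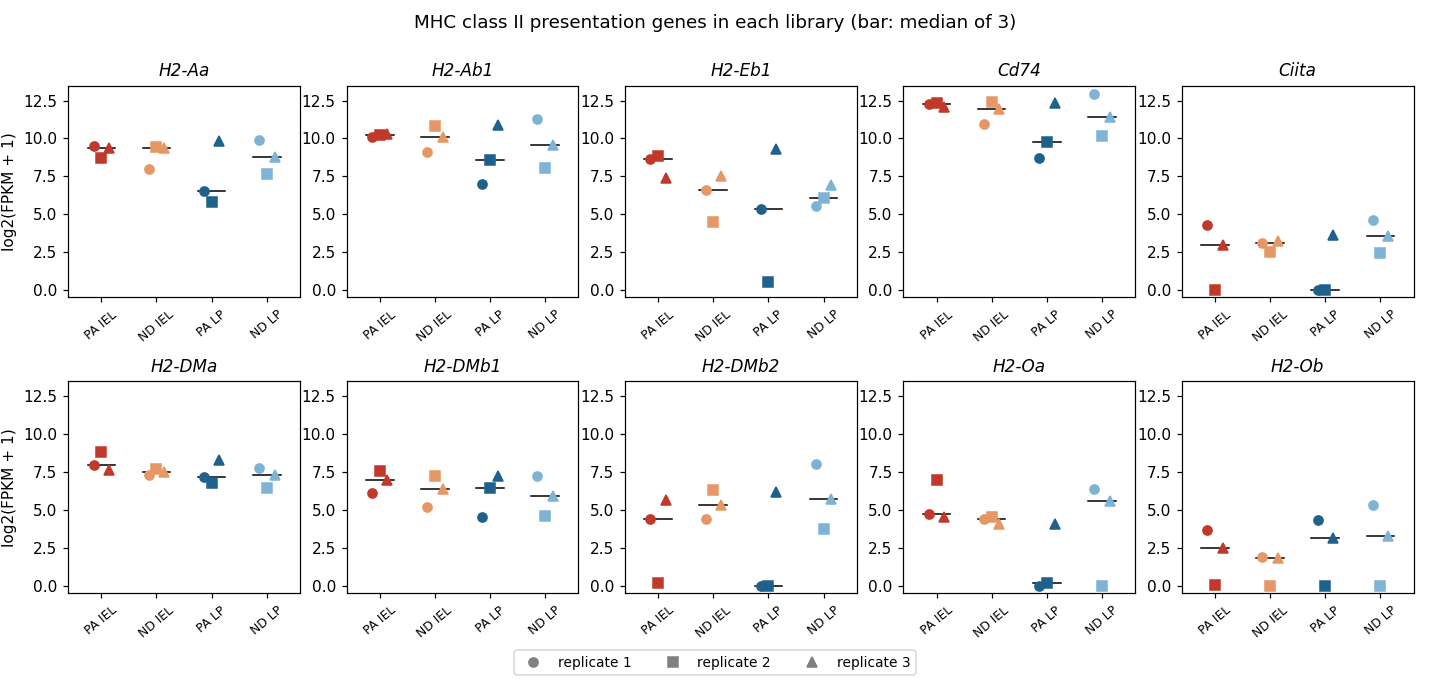
Each panel plots 1 gene as log2(FPKM + 1), with the 4 groups on the horizontal axis, a point for each library shaped by replicate number, and a bar at the group median. For Cd74 the PA IEL libraries sit between 4248 and 5203 FPKM, while PA LP runs from 419 to 5307 FPKM.

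Ciita, the transactivator of the pathway, had a median of 7.08 FPKM over the 12 libraries. It was at 18.6, 0 and 6.66 FPKM in PA IEL, at 7.50, 4.67 and 8.27 FPKM in ND IEL, at 0, 0 and 11.4 FPKM in PA LP, and at 23.4, 4.30 and 10.8 FPKM in ND LP. The 3 libraries in which it was listed at 0 were all PA libraries and included both with the fewest genes. In PA IEL replicate 2, Ciita was listed at 0 beside 5203 FPKM of Cd74. Its log2 fold change for PA over ND was -0.52 ± 1.37 in IEL and -2.32 ± 1.37 in LP (adjusted p = 1.0 and 0.979, limma). Without the 2 libraries with the fewest genes the IEL value was 0.68, the opposite direction, and with a pseudocount of 0.1 the values were -1.53 in IEL and -4.42 in LP.

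H2-DMa and the paralogs H2-DMb1 and H2-DMb2 encode the peptide exchange factor. H2-DMa was the steadiest member, at 246, 446 and 202 FPKM in PA IEL, 156, 205 and 178 FPKM in ND IEL, 142, 110 and 307 FPKM in PA LP, and 215, 85.8 and 157 FPKM in ND LP. H2-DMb1 was at 68.0, 194 and 124 FPKM in PA IEL, 36.4, 149 and 83.6 FPKM in ND IEL, 22.1, 87.6 and 149 FPKM in PA LP, and 151, 23.6 and 58.2 FPKM in ND LP. The groups overlapped for both genes in each comparison. H2-DMb2 was at 20.5, 0.126 and 50.4 FPKM in PA IEL, 20.2, 80.1 and 39.6 FPKM in ND IEL, 0, 0 and 71.3 FPKM in PA LP, and 259, 12.4 and 51.3 FPKM in ND LP. It was nearly missing where Ciita was listed at 0, and its log2 fold change for PA over ND in LP was -3.77 ± 1.75 (adjusted p = 0.979, limma). With a pseudocount of 0.1 in place of 1 it was -5.94, so its size depends on the constant added to listed zeros. Of the 50-base stretches of the annotated H2-DMb1 transcripts, 22.7% also occur in H2-DMb2, so how reads were divided between these paralogs is uncertain.

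H2-Oa and H2-Ob encode the alpha and beta chains of the H2-O modulator, which is best known from B cells. H2-Oa was at 25.4, 127 and 21.7 FPKM in PA IEL, 19.8, 22.2 and 15.6 FPKM in ND IEL, 0, 0.108 and 15.7 FPKM in PA LP, and 84.1, 0 and 47.5 FPKM in ND LP. It was higher in each PA IEL library than in any PA LP library, a comparison in which groups did not overlap for 8.57% of all tested genes. Its groups overlapped in the other 3 pairwise comparisons, and those of the other 9 members overlapped in all 4. The log2 fold change of H2-Oa for IEL over LP in PA was 4.01 ± 1.59 (adjusted p = 0.419, limma), or 5.90 with a pseudocount of 0.1. The two-sided exact permutation test gave p = 0.1, the smallest value 3 against 3 libraries allow. H2-Ob was at 11.5, 0.0296 and 4.71 FPKM in PA IEL, 2.72, 0 and 2.48 FPKM in ND IEL, 18.9, 0 and 7.87 FPKM in PA LP, and 39.0, 0 and 8.88 FPKM in ND LP. Replicate 2 of every group was at or near 0, and the partner chain H2-Oa was at 127 FPKM in PA IEL replicate 2.

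None of the 10 members, all of which passed the filter on low values, was called in any of the 5 contrasts at an adjusted p under 0.05 in limma. For PA against ND in IEL, 0 of 10 members were called beside 0.0% of the 12502 genes tested. At an unadjusted p under 0.05 the members numbered 0 beside 3.58% of genes, and 0 members had groups that did not overlap beside 8.19% of genes. With 8 members higher and 2 lower in PA, beside 38.0% of all tested genes higher, the members' median log2 fold change was 0.53. That of all tested genes was -0.30. The members' median was 0.06 without ND IEL replicate 1, 0.35 without PA IEL replicate 1, 0.12 with leukocyte gene scaling and 1.05 with upper quartile scaling. The upper quartile of FPKM was 5.236 in PA IEL replicate 2 and 19.7 to 25.26 in the other libraries, so that scaling raised this library most. Its leukocyte sum was the highest, at 5926, so leukocyte gene scaling lowered it most. With only the 6 libraries, 1 member had an unadjusted p under 0.05.

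For PA against ND in LP, 0 members were called beside 0.0% of genes. Only H2-DMb2 had an unadjusted p under 0.05, beside 4.7% of genes, and 0 members had groups that did not overlap, beside 9.57%. The number at an unadjusted p under 0.05 was 0 in 8 of the 12 fits without 1 library (PA IEL replicate 1, any ND IEL library, PA LP replicates 1 and 2, and ND LP replicates 1 and 3), 7 without PA LP replicate 3 and 4 without ND LP replicate 2. It was also 0 with no filter, leukocyte gene scaling, a replicate block, only the 6 libraries, sample quality weights or without both libraries with the fewest genes. The members' median was -1.18, with 2 higher and 8 lower beside 37.4% of all genes higher, against -0.36 over all genes. It was -2.44 without PA LP replicate 3, -1.87 without ND LP replicate 2, -0.67 without ND LP replicate 1, -0.64 without PA LP replicate 2 and -0.50 with sample quality weights. Of the marker lists, 5 were also lower in PA here, with medians of -2.20 for B cells (6 of 6 tested lower), -1.72 for ILC3 and sort (15 of 16), -1.98 for plasma cells (4 of 6), -1.99 for epithelium (13 of 13) and -1.99 for T cells (7 of 8), while macrophage and dendritic cell markers were at 0.18 and 0.02. The B cell values include Ms4a1 (-4.45), which passed the filter only through the ND LP libraries, so its direction was set by the filter. Leukocyte genes, a list made for scaling, were at -0.45 (18 of 30 lower). In IEL the medians for epithelium and T cells were -1.71 and -2.15, and that for ILC3 and sort was 0.79. The part of such shifts in the members' values was not tested.

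For IEL against LP under ND, 0 members were called beside 0.032% of genes, which is 4 genes. Unadjusted p fell under 0.05 for 0 members and 6.63% of genes, and groups did not overlap for 0 members and 19.3% of genes. The members' median was 0.20 against -0.09 over all genes. It turned direction when 1 library was left out, to -0.43 without ND LP replicate 2 and -0.09 without ND IEL replicate 2, and was 0.06 without ND IEL replicate 3, 0.35 without ND IEL replicate 1, 0.68 without ND LP replicate 1, 0.58 with leukocyte gene scaling and 0.40 with sample quality weights. Marker list medians in this contrast were 1.82 for epithelium (12 of 13 higher in IEL), 0.89 for dendritic cells (6 of 11), -1.53 for ILC3 and sort (1 of 16), -1.55 for plasma cells (2 of 6), -1.49 for B cells (2 of 6), -0.58 for macrophages (3 of 11) and -0.54 for T cells (3 of 8), and their part was not tested. These B cell values include Ms4a1 (-4.43), which passed the filter only through the ND LP libraries, so its direction was set by the filter. For IEL against LP under PA, 0 members were called beside 0.144% of genes, which is 18 genes. Unadjusted p fell under 0.05 for 4 members, Cd74, H2-Oa, H2-Aa and H2-Eb1, and 10.6% of genes. That number was 0 without PA IEL replicate 2, without PA LP replicate 1, without PA LP replicate 2 or without both libraries with the fewest genes, 1 with sample quality weights, 2 with a replicate block, 5 without PA LP replicate 3, and 2 without PA IEL replicate 1 or without replicate 3 of PA IEL, ND IEL or ND LP. It was also 2 with a pseudocount of 0.1, no filter or leukocyte gene scaling, and 5 with upper quartile scaling or only the 6 libraries. Without replicate 1 or replicate 2 of ND IEL or ND LP it was 3. Groups did not overlap for 1 member and 8.57% of genes. The members' median was 1.38, with 9 higher in IEL and 1 lower beside 48.3% of all genes higher, against -0.03 over all genes. It was 0.60 without PA LP replicate 1 and 2.71 without PA LP replicate 3. Marker list medians in this contrast were 2.64 for epithelium (9 of 13 higher in IEL), 0.92 for ILC3 and sort (11 of 16), 0.40 for B cells (5 of 6), 0.26 for plasma cells (4 of 6), 0.19 for dendritic cells (6 of 11), -0.45 for macrophages (2 of 11) and -1.61 for T cells (2 of 8), and leukocyte genes were at 0.42 (18 of 30). The B cell values here include Ms4a1 (0.02), which passed the filter only through the ND LP libraries. Ms4a1 did not exceed 0.0427 FPKM in any PA library.

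For the difference of the diet contrast between the layers, 0 members were called beside 0.0% of genes, and unadjusted p fell under 0.05 for 0 members and 2.34% of genes. The members numbered 4 without PA LP replicate 3, 2 without ND LP replicate 2 and 1 with upper quartile scaling. All 10 log2 values of this difference were above 0, beside 50.8% of all genes. They ran from 0.41 to 3.69, with a median of 1.67 against 0.03 over all genes. Several lists lay on the same side, with medians of 3.27 for B cells (5 of 6 above 0), 2.51 for plasma cells (5 of 6), 2.11 for ILC3 and sort (14 of 16) and 0.67 for leukocyte genes (23 of 30). Those of epithelium (0.39) and macrophages (0.14) were nearer 0, and those of dendritic cells (-0.66) and T cells (-0.73) were below it, and no part of these lists in the members' values was tested. Among the B cell values, that of Ms4a1 (4.45) had its direction set by the filter, which it passed only through the ND LP libraries. The members' median was 0.85 without ND LP replicate 1, 0.88 without PA LP replicate 2, 1.05 without PA LP replicate 1, 1.11 with leukocyte gene scaling and 2.80 without PA LP replicate 3. These contrasts share libraries and are not independent of each other. Without PA IEL replicate 2 and PA LP replicate 2, 0 members were called in each contrast, and the members' median was 0.36 for the diet in IEL, -0.64 for the diet in LP, 0.20 for the layer under ND, 1.25 for the layer under PA and 1.03 for the difference. Leaving out PA LP replicate 2 alone changed the number of genes called between the layers from 4 to 65 under ND and from 18 to 291 under PA, with 0 members among them. Under ND the number was 15 without PA IEL replicate 3, and 0 to 2 without PA IEL replicate 1, PA LP replicate 1 or any 1 of the ND libraries. Under PA it was 1 without PA LP replicate 1, 5 without PA IEL replicate 3, 11 without replicate 1 or replicate 3 of ND IEL and 32 without PA LP replicate 3.

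Members moved together to different degrees across the 12 libraries, described here by Pearson's r of log2(FPKM + 1) over libraries that share depth and composition. Cd74 followed H2-Ab1 (r = 0.97) and H2-Aa (r = 0.93), and the ratio of Cd74 to H2-Ab1 stayed between 2.29 and 4.69. Ciita was closest to H2-DMb2 (r = 0.92), and H2-Ob followed Cd74 least (r = 0.13). Ciita and H2-DMb2 were both at or near 0 in PA IEL replicate 2 and PA LP replicates 1 and 2, where a listed 0 may be a failed estimate. How far their r rests on these libraries was not tested. The members together made up 0.118% of all FPKM in PA LP replicate 1 and 1.56% in ND LP replicate 1. Outside the members, the 10 tested genes most like their mean were Trappc5 (r = 0.88), AI837181 (r = 0.88), Herpud1 (r = 0.87), Syngr2 (r = 0.86), Snapin (r = 0.86), Trp53inp1 (r = 0.84), Tnfrsf1b (r = 0.83), St8sia4 (r = 0.83), Runx2 (r = 0.82) and Gpcpd1 (r = 0.81), over 12 libraries. They were picked for the highest r among all tested genes outside the members. Whether r this high arises over 12 libraries without any relation was not tested. Herpud1 was measured in every library, from 111 to 609 FPKM, whereas Trappc5, AI837181, Snapin, Trp53inp1 and St8sia4 were listed at 0 in at least 1 library.

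Other genes of the pathway were counted in lists. Of 15 regulators of class II, 15 were tested and 0 were called in the 5 contrasts, with a median log2 fold change for PA over ND of -0.37 in IEL and -0.64 in LP. Irf1, an interferon-induced activator, was the most abundant, at 260, 106 and 84.8 FPKM in PA IEL and 318, 608 and 316 FPKM in ND IEL. In PA LP it was at 1170, 107 and 1580 FPKM and in ND LP at 761, 942 and 341 FPKM. PA LP replicates 1 and 3 were both high for Irf1 and differed for Cd74, and a link between these genes was not tested. Ifngr1 and Ifngr2, the chains of the interferon-gamma receptor, ranged from 51.7 to 217 and from 18.3 to 232 FPKM.

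Of 14 peptide processing genes, 13 were tested and 0 called, and their median for PA over ND was 0.31 in IEL and 0.32 in LP. The lysosomal proteases Ctsd, Ctsb and Ctsz led this list, and Ctsd was highest in PA IEL replicate 2 (2540 FPKM) and PA LP replicate 2 (2680 FPKM). Of 9 turnover and other class II genes, 5 were tested and 0 called, led by Cd63 (137 to 980 FPKM), Cd82 (24.3 to 367 FPKM) and H2-Ea-ps.

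Of 10 co-stimulatory ligands, 9 were tested and 0 called, with a median for IEL over LP of -1.59 under ND and -0.41 under PA, and for PA over ND of -0.18 in IEL and -1.91 in LP. Cd83, which marks activated presenting cells, was at 811, 0.188 and 196 FPKM in PA IEL, 96.5, 13.3 and 198 FPKM in ND IEL, 5.14, 121 and 102 FPKM in PA LP, and 584, 423 and 161 FPKM in ND LP. Tnfsf9 ranged up to 318 FPKM and Cd274 up to 122 FPKM. Of the T cell receptors for class II, Cd4 ranged from 0 to 63.3 FPKM and was not called, and Lag3 did not exceed 5.84 FPKM. Of 15 interferon-gamma response genes, 14 were tested and 1 was called, for IEL against LP under PA. The list's median for IEL over LP was -2.36 under ND (9 of 14 lower) and -2.88 under PA (11 of 14 lower), and for PA over ND it was -0.37 in IEL and -0.29 in LP. The called gene was Iigp1, a GTPase of pathogen vacuoles, with a log2 fold change of -7.56 ± 1.25 (adjusted p = 0.0245, limma). It was not called without PA IEL replicate 3 (adjusted p = 0.0956), without PA LP replicate 1 (adjusted p = 0.151) or without PA LP replicate 3 (adjusted p = 0.0601, limma), nor with no filter, a replicate block or only the 6 libraries. Iigp1 was at 0.150, 0.0533 and 0.116 FPKM in PA IEL and 539, 27.9 and 585 FPKM in PA LP. Under ND it was at 2.5, 16.2 and 2.42 FPKM in IEL and 369, 242 and 59.4 FPKM in LP, with a log2 fold change of -4.90 ± 1.25 (adjusted p = 0.249, limma), and the difference between the diets was not called (adjusted p = 1.0, limma). Psmb8 and Psmb9, subunits of the immunoproteasome, were at 182 FPKM or more in every library.

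Markers of other cell types that carry class II were read in each library, and their part in the class II levels was not tested. Of 9 B cell markers, 6 were tested and 0 called, and their summed level ran from 27.9 FPKM in PA LP replicate 1 to 1086 FPKM in ND LP replicate 1, the library with the most Cd74. Cd79a led the list, at 608 FPKM in that library. Ms4a1 reached 1 FPKM only in the ND LP libraries (138, 4.44 and 12.8 FPKM), and so passed the filter through that group alone. In PA IEL replicate 2 and ND IEL replicate 2, Ms4a1 and Cd79a were listed at 0, Cd79b was at 139 and 52.4 FPKM, Blnk was at 0 and 87.4 FPKM, and the list summed to 187 and 148.7 FPKM. Igj led the plasma cell markers (6 tested, 0 called), which summed to between 1.48 FPKM in PA LP replicate 2 and 18440 FPKM in PA IEL replicate 1, followed by Sdc1 (0 to 235 FPKM) and Derl3 (0 to 130 FPKM).

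Of 11 macrophage markers tested, 0 were called. They summed to 344 FPKM in ND IEL replicate 3 and 13370 FPKM in ND LP replicate 1, led by Lyz2 (82.3 to 10400 FPKM). C1qa, of the complement C1q complex, was present in every library, from 28.8 to 909 FPKM, although CD11b-positive cells were meant to be removed in the sort. C1qa was highest in PA LP replicate 2, where Cd74 was at 874 FPKM, and C1qb (1170 FPKM) and C1qc (1640 FPKM) were highest in PA IEL replicate 2, where Cd74 was at 5203 FPKM. The highest sum and the most Lyz2 were in the library with the most Cd74, ND LP replicate 1, and the lowest sum was in a library with 3879 FPKM of Cd74. Csf1r, the receptor for macrophage growth factor, was under 0.1 FPKM in 5 libraries.

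Of 11 dendritic cell markers, 0 were called, and they summed to between 209 FPKM in ND LP replicate 3 and 1048 FPKM in PA IEL replicate 1. Irf8 led the list, from 46.9 to 470 FPKM. Siglech, of plasmacytoid dendritic cells, was at 294, 414 and 143 FPKM in PA IEL and 126, 203 and 330 FPKM in ND IEL, against at most 71.8 FPKM in LP. Ccr7 went the other way, with at most 29.7 FPKM in IEL and up to 169 FPKM in LP, and the median of the list for IEL over LP was 0.89 under ND and 0.19 under PA. Itgax and Zbtb46, which define conventional dendritic cells, ranged from 0 to 77.5 and from 0 to 45.2 FPKM.

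Of 13 epithelial markers, 0 were called, while 6 under ND and 8 under PA had an unadjusted p under 0.05 (limma) between the layers. Outside this list, 1 gene was called higher in IEL under ND, Apoa1 (log2 fold change 7.43), and 3 were called lower. Under PA 11 were called higher in IEL, among them Apoa1 (7.55), Apoa4 (8.68) and Rbp2 (8.30), and 7 lower. The named genes are known from enterocytes, but they were picked after the calls were seen and no enrichment was tested. Under ND the call of Apoa1 held in 5 of 12 fits without 1 library, and under PA the calls of Apoa1, Apoa4 and Rbp2 held in 10, 10 and 11. With no filter these calls were lost (adjusted p = 0.158 under ND, and 0.0946, 0.0946 and 0.0768 under PA, limma). Both calls of Apoa1 were also lost with a replicate block, and that under ND with a pseudocount of 0.1. The markers summed to between 404 FPKM in PA LP replicate 3 and 50750 FPKM in ND IEL replicate 2. Fabp2, Fabp1 (1.29 to 12100 FPKM) and Krt8 (121 to 3460 FPKM) led them, and Epcam ranged from 0.196 to 1130 FPKM. Of 8 T cell markers tested, 0 were called. Cd3g had the highest mean, Cd8b1 ranged from 0 to 129 FPKM, and Cd3e was listed at 0 in 5 libraries, including all PA IEL libraries. Of 16 ILC3 and sort markers tested, 0 were called, and they summed to between 162 FPKM in PA LP replicate 2 and 5554 FPKM in ND LP replicate 2, led by Il22 (0.0886 to 4340 FPKM), Id2 and Ltb (0 to 569 FPKM). Il22 alone made up 4340 of the 5554 FPKM in ND LP replicate 2.

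**Figure D2:**
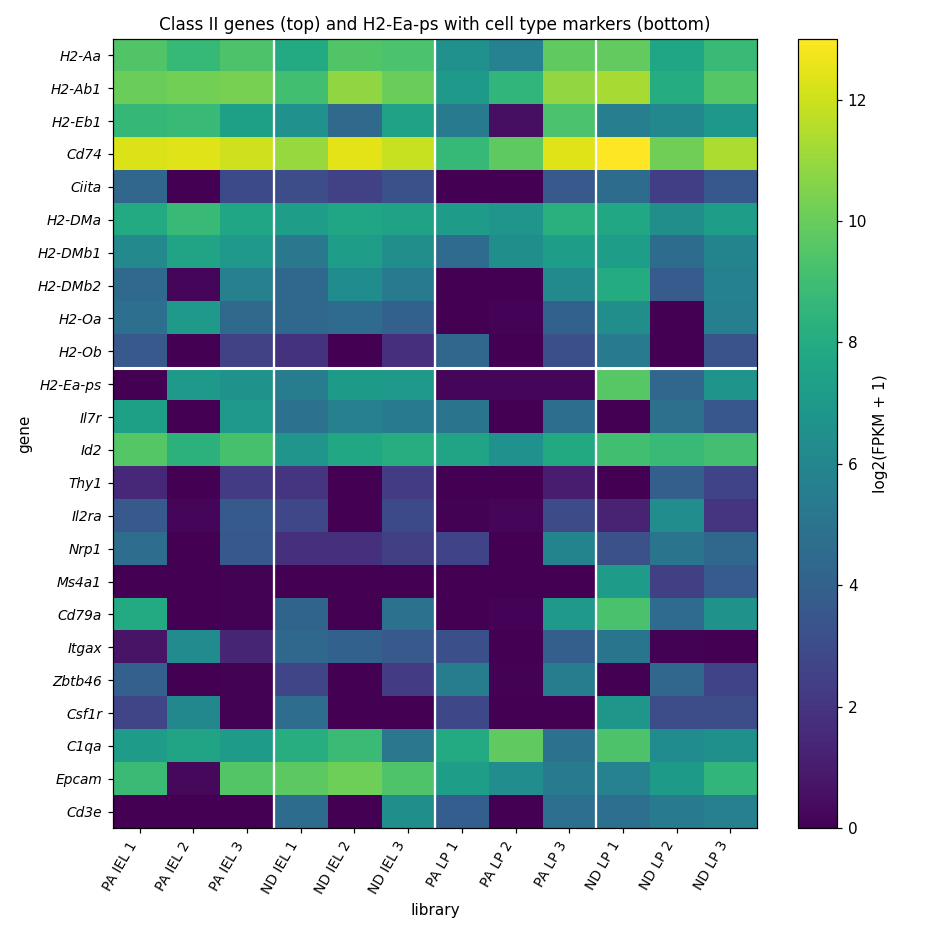
Colours give log2(FPKM + 1) of the 10 class II genes (upper rows) and of H2-Ea-ps and cell type markers (lower rows) in the 12 libraries, with white lines between groups. Cd74 runs from 419 FPKM in PA LP replicate 1 to 8014 FPKM in ND LP replicate 1, and C1qa from 28.8 to 909 FPKM.

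In the mouse genome (GRCm38), 8 members lie together on chr17:34092340-34316674, a stretch of 224.3 kb of the MHC. Promoters of 7 of the 10 members were found in the RefSeq promoter table (GRCm38.p6), and H2-Ab1, Cd74 and Ciita were not in it. Class II promoters are known for an X box and a Y box, so short letters of these boxes were sought in the 250 bases before each start, and matches in the members are on the strand of the gene. They were chosen after the sequences had been seen. ATTGG, from the Y box, was in an entry of each of the 7 genes, and 19.7% of all 32851 promoters hold it on the strand of their gene (33.8% on either strand). AACNNATG, from the X box, was in 4 of them, and 3.92% of all promoters hold it on that strand (7.71% on either). AACNNATG followed within 10 to 30 bases by ATTGG was in the same 4 genes, H2-Eb1, H2-DMb1, H2-DMb2 and H2-Ob, and 0.0913% of all promoters hold that pair on that strand (0.161% on either). H2-Aa held TGACGTCA, which 1.55% of promoters hold. A match is a description of letters and not of binding.

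The stretches from -130 to -31 are shown for members whose window lies outside annotated exons and holds these letters, to set the shared pair beside the differing H2-Aa. Capitals mark AACNNATG, ATTGG and TGACGTCA. They are chr17:34305737-34305836 (+) for H2-Eb1, chr17:34145119-34145218 (+) for H2-DMb2, chr17:34238775-34238874 (+) for H2-Ob and chr17:34287854-34287953 (-) for H2-Aa, each printed on the strand of the gene.
H2-Eb1: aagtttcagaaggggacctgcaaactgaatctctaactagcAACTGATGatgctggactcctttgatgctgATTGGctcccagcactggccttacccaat
H2-DMb2: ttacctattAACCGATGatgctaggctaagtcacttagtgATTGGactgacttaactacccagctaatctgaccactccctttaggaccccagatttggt
H2-Ob: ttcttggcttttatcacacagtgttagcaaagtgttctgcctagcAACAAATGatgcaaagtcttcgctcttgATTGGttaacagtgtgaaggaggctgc
H2-Aa: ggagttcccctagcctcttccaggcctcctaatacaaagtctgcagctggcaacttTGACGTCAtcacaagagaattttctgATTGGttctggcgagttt
The spacing between the boxes was 22 bases in H2-Eb1, 23 in H2-DMb2 and 20 in H2-Ob. H2-Eb1, H2-DMb2 and H2-Ob, which share the pair, differed in level and in pattern across the libraries.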

How the data were processed

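RNA of sorted cells was amplified with the SMART-Seq v4 kit without molecular identifiers. The authors mapped reads to mm10 with TopHat (2.1.1) and Bowtie2 (2.2.8.0) and made the FPKM values with Cufflinks (2.2.1), on a common scale across libraries. The deposited count table holds a scaled signal, counts divided by a size factor and rounded, and was used only for depth. Steps between low values pointed to about 8790000 to 14560000 reads per library, and 90.9 to 99.0% of the low values lay within 0.05 of a whole read.

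FPKM was tested with limma (3.58.1, R 4.3.3) after adding 1 and taking log2, a scale that understates changes of low genes, and the prior variance followed the mean level. Genes needed 1 FPKM in at least 3 of 12 libraries, which 12502 reached. A fit of 4 group means gave 5 contrasts, with Benjamini-Hochberg adjustment over all tested genes and a threshold of 0.05. The code was tested on simulated data. Exact permutation tests were two-sided and used single genes.

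The members and lists were chosen with earlier results of these data known. The text names all members and, from each pathway or marker list, the 3 genes with the highest mean FPKM, any gene past the threshold and the defining markers, not all of which are described, and the 10 genes most like the members' mean. Values of 2 marker genes are not reported here and were left out of the marker lists. Other values were chosen after they were seen. Alternatives were another pseudocount, no filter, 2 scalings, a replicate block, fewer libraries and sample weights. The members' median for the difference between layers was added to the table of alternatives after its values had been seen, as was the spread it is judged by. Gene positions are from GENCODE. Tables and plots used Python 3.11.15, numpy 2.4.6, pandas 2.3.3 and matplotlib 3.10.9.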

Additional observations from a re-analysis of the deposited data

How the results depend on the processing

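No member was called in any contrast under any of the 8 alternative settings or with any of the 12 libraries left out, except that the setting with only 6 libraries does not apply to the difference of the diet contrast. The lowest adjusted p of a member was 0.0529 (limma), for IEL against LP in PA without PA LP replicate 3, against 0.406 with all libraries. Counts over all genes were less stable. For IEL against LP, 4 genes were called under ND and 18 under PA, and the cause of the changes below was not tested. With a pseudocount of 0.1, 1 was called under ND. Without the filter, 0 were called under ND and 3 under PA. With upper quartile scaling, which raised PA IEL replicate 2 most, 11 and 29 were called, and 2 for the diet in LP. With leukocyte gene scaling 9 were called under PA. With only the 6 libraries of a contrast 107 and 10 were called, and 1 for the diet in IEL. With sample quality weights 793 and 134 were called, and 3 for the diet in LP. Without PA IEL replicate 2 and PA LP replicate 2 together, 121 and 314 were called. Leaving out each library gave 0 to 1 for the diet in IEL, 0 to 7 for the diet in LP, 0 to 65 for the layer under ND and 1 to 291 for the layer under PA.

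With a replicate block, 0 genes were called between the layers under ND, 5 under PA and 1 for the difference of the diet contrast, and it changed no call of a member. Deviations from the group means of libraries with the same number correlated at -0.03 to 0.06 between layers and at -0.12 to 0.07 between diets. With 3 libraries in a group, such values cannot decide whether IEL and LP libraries with the same number share a mouse. The main fit did not pair them. Of 6 pairs each, 1 between layers and 1 between diets was the best match of its first library. A count model was not run, since not all low values came out as whole reads.

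Of 320 log2 fold changes of members under the other settings, 11 turned direction, none of them called. Those with no filter, a replicate block or only the 6 libraries equal the main values by design and could not turn. The same holds for the layer under ND without both PA libraries with the fewest genes. With leukocyte gene scaling, H2-Aa was -0.15 and H2-Ab1 -0.20 for the diet in IEL, and H2-Eb1 0.37 for the layer under ND. With sample quality weights, Ciita was 0.41 for the diet in IEL, H2-Eb1 0.19 and H2-Ob 1.25 for the diet in LP, and H2-Eb1 0.59 for the layer under ND. Without both PA libraries with the fewest genes, Ciita was 0.68 for the diet in IEL, and H2-Eb1 1.15, H2-DMb1 -0.04 and H2-Ob 0.86 for the diet in LP. The scalings moved the median of all genes by about 0.1 or more in several contrasts. Upper quartile scaling moved it from -0.30 to -0.10 for the diet in IEL, from -0.03 to 0.18 for the layer under PA and from 0.03 to 0.28 for the difference. Leukocyte scaling moved it to -0.50 for the diet in IEL, from -0.36 to -0.26 for the diet in LP, from -0.09 to 0.20 for the layer under ND and to -0.29 for the difference. Relative to that median, H2-Aa and H2-Ab1 for the diet in IEL were 0.35 and 0.30 with leukocyte scaling, so they turned only with the shift of all genes, and H2-Eb1 for the layer under ND was 0.16 (0.08 unscaled). H2-Ob for the diet in LP turned relative to it, from -0.03 to 0.13. Relative to it the members' median kept its direction in the 5 contrasts under both scalings.

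Leaving out each library turned 29 of 480 values. A value could move only when the library left out belonged to its own contrast, so the others could not turn. For the diet in IEL, H2-Aa ranged from -0.22 to 0.52, H2-Ab1 from -0.25 to 0.63 and Ciita from -1.47 to 0.68. For the diet in LP, H2-Ab1 ranged from -1.87 to 0.09, H2-Eb1 from -3.26 to 1.15, H2-DMa from -0.19 to 0.55, H2-DMb1 from -0.49 to 0.93 and H2-Ob from -1.82 to 0.86. For the layer under ND, H2-Aa ranged from -0.42 to 0.72, H2-Ab1 from -0.43 to 1.18, H2-Eb1 from -0.66 to 0.84, Cd74 from -0.42 to 0.97, H2-DMa from -0.04 to 0.62, H2-DMb1 from -0.28 to 1.03, H2-DMb2 from -1.50 to 0.64 and H2-Oa from -1.69 to 1.52. For the layer under PA, H2-Ob ranged from -1.67 to 0.59. The members' median ranged from 0.06 to 0.69 for the diet in IEL, -2.44 to -0.64 for the diet in LP, -0.43 to 0.68 for the layer under ND, 0.60 to 2.71 for the layer under PA and 0.85 to 2.80 for the difference.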
